A study of Mus musculus with 8 samples.

Results

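Presomitic mesoderm is the strip of paraxial mesoderm on each side of the caudal midline that is cut, block by block, into somites, the precursors of vertebrae, ribs, skeletal muscle and dermis. Its cells ingress through the primitive streak and the caudal end of the embryo, switch on the T-box factor Tbx6, and carry a segmentation clock in which genes of the Notch, Wnt and FGF pathways are switched on and off in cycles. A gradient of Wnt and FGF signalling, high at the caudal end, sets the front at which cells leave this state, express Mesp2 and Ripply2 and become somite. Cells of this kind were taken here from single-cell RNA-seq of chimaeric mouse embryos at E8.5, and were chosen by their own transcripts. Cells were kept with at least 1500 UMIs (unique molecular identifiers, each counting 1 captured transcript), at most 30% mitochondrial and at most 35% ribosomal protein UMIs. A kept cell was a member when it held at least 1 UMI of Tbx6 and at least 1 UMI of at least 2 of the 4 genes Hes7, Msgn1, Dll1 and Dll3. This rule took 882 of 37186 kept cells of the E8.5 libraries (2.37%), out of 49838 kept cells in the 8 libraries of the experiment.

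The embryos were made from ES cells lacking Tet1, Tet2 and Tet3 (Tet-TKO), the dioxygenases that oxidise 5-methylcytosine. This line, of mixed C57BL/6J and 129Sv background, carried an H2B-tdTomato reporter driven by the CAG promoter, was selected with puromycin and was injected into C57BL/6J blastocysts, so that Tet-TKO cells grew beside cells of the wild-type host (WT host). Embryos were pooled and their live single cells were sorted by tdTomato fluorescence, which gave 6 libraries at E8.5, 4 with Tet-TKO cells and 2 with cells of the host. All WT host cells shared the environment of a chimaera, and the strain background of the ES cells and the loss of the TET enzymes cannot be told apart in this design, nor can the single ES cell line. The comparison asked what the loss of TET enzymes changed in cells of this kind that developed among host cells. The sources used here do not say that the libraries came from separate pools of embryos, so p-values measure the spread between these libraries, which may be technical.

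The libraries held 65601218 to 136982886 UMIs. Members numbered 202, 243, 111 and 60 in Tet-TKO libraries 1 to 4 (616 of 19891 kept cells) and 129 and 137 in WT host libraries 1 and 2 (266 of 17295 kept cells). Their median UMI counts were 19697, 12742, 44611 and 72537 in the Tet-TKO libraries and 15062 and 13667 in the WT host libraries. Tet-TKO libraries 3 and 4 thus stood apart in depth. The counts summed over members also differed more between either of these and Tet-TKO libraries 1 or 2 (chi-square per degree of freedom of 11.97 to 16.6) than within the pairs 1 and 2 (2.24), 3 and 4 (3.66) or between the WT host libraries (2.42). Values without these deep libraries are given beside many of the results. This setting was not planned beforehand, and the libraries stood apart in the same data that were then tested. Removing libraries that differ from the others of their genotype lowers the spread that the test measures. A gene that passed only in this setting is therefore described, and its p-value is no independent support for a difference. Libraries shared at most 0.435% of the barcodes of the smaller one.

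Levels are given as CPM, the UMIs of a gene as a share of all UMIs of the members of its library and in counts per 1000000. The targeted genes come first. Tet1 was at 13.4, 13.3, 27.5 and 29.0 CPM in Tet-TKO libraries 1 to 4 and at 32.1 and 23.2 CPM in the WT host libraries. Tet2 lay at 4.07, 2.12, 5.53 and 4.69 against 2.79 and 2.90 CPM, and Tet3 at 15.5, 13.3, 28.2 and 22.8 against 16.3 and 19.8 CPM. The groups overlapped for all 3 genes, with adjusted p from 0.719 to 0.892 in edgeR's quasi-likelihood test. Without Tet-TKO libraries 3 and 4, Tet1 was lower in Tet-TKO without overlap (-0.98 on the log2 scale, adjusted p = 0.0171), and Tet3 gave -0.24 (adjusted p = 0.692). Such libraries count the 3′ end of a transcript, and the sources used here do not say that the counted part was deleted, so these levels check nothing about the knockout. The reporter did check the labels. tdTomato was at 63.9, 80.8, 124 and 132 CPM in the Tet-TKO members and at 0 and 2.42 CPM in the WT host members, and at least 1 UMI of it was found in 115, 138, 96 and 56 Tet-TKO members and in 0 and 2 WT host members. Xist, the RNA that coats the inactive X chromosome, was at 17.0, 11.2, 24.5 and 0 CPM against 401 and 446 CPM. The sources used here do not give the sex of the cells. A difference in sex or X chromosomes cannot be told apart from genotype, also for X-linked genes such as Alas2, given below.

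The 5 genes of the rule are described here without a test, since they chose the cells. Tbx6 directs cells to paraxial mesoderm. It was at 95.7, 115, 60.6 and 48.7 CPM in members of the Tet-TKO libraries and at 147 and 133 CPM in those of the WT host libraries, so that all 4 Tet-TKO values lay below both WT host values, with the deep libraries 3 and 4 lowest. Depth differed between these libraries too, and the parts of depth and genotype in these levels were not tested. Hes7, a transcriptional repressor whose own cycling paces the clock, was at 140, 210, 135 and 140 against 172 and 173 CPM, with the highest value of all in Tet-TKO library 2. Msgn1, a factor of mesoderm maturation, was at 14.8, 10.6, 7.005 and 6.83 against 16.3 and 9.67 CPM. The Notch ligand Dll1 was at 102, 112, 96.2 and 76.0 against 145 and 134 CPM. Dll3, a divergent ligand that acts inside the cell, was at 112, 133, 122 and 106 against 180 and 200 CPM, and both delta genes were below the WT host range in all 4 Tet-TKO libraries. Among the other kept cells, 0.69 to 1.48% held a UMI of Tbx6 and 3.91 to 10.1% one of Dll3.

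Promoter sequences show what these clock and lineage genes carry just upstream of their starts. The windows are the 250 bases before the annotated start from RefSeq on GRCm38.p6, written 5′ to 3′ on the strand of the gene. Capitals mark TGGGAA, read on either strand as TGGGAA or TTCCCA, the core that RBPJ, the DNA-binding partner of Notch, recognises. Hes7 (chr11:69120203-69120452, plus strand), Lfng (chr5:140607091-140607340, plus strand) and Msgn1 (chr12:11208949-11209198, minus strand) are shown because they are clock or lineage genes of these cells that hold this core, 174 bases before the start in Hes7, 129 and 102 in Lfng and 108 in Msgn1. In T (chr17:8434173-8434422, plus strand), the T-box founder gene of caudal mesoderm, capitals mark AGGTGTNA, a T-box motif searched on both strands, 6 bases before its start. The RBPJ core was in 21.6% of 32851 promoters of this length and the T-box motif in 2.68%. Of the 5 rule genes, 2 held the RBPJ core and 0 the T-box motif, and of the 15 Notch pathway genes with a promoter here 4 held the core (Hes5, Hey2, Lfng and Rbpj). These matches are letters in a window and no evidence of binding.
Hes7: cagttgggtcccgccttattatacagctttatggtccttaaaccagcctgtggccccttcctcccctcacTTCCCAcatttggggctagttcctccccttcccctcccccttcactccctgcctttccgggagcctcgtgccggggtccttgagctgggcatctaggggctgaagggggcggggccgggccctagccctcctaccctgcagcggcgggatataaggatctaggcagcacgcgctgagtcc
Lfng: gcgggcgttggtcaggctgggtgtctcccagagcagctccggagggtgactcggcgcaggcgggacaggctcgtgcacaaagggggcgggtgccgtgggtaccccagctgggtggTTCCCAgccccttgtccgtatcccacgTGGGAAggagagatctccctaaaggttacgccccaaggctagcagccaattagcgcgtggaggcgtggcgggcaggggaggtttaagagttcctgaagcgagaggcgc
Msgn1: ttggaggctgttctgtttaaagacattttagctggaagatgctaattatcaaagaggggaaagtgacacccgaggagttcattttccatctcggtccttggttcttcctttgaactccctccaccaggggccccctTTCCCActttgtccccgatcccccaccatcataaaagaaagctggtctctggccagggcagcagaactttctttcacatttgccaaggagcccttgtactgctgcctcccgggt
T: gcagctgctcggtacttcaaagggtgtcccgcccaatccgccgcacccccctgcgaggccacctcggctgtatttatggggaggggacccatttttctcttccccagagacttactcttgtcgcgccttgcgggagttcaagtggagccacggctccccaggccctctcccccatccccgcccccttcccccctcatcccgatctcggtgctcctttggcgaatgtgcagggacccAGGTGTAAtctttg

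Members differed among themselves in how many genes of the rule they held. Exactly 2 of the 4 genes beside Tbx6 were found in 38.1, 51.9, 16.2 and 26.7% of Tet-TKO members and in 29.5 and 42.3% of WT host members, and all 4 in 13.9, 5.35, 19.8 and 16.7% against 14.7 and 8.76%. The share at this edge was lowest in the deep libraries 3 and 4. Just outside the rule lay cells with Tbx6 and exactly 1 of the 4 genes, 37, 70, 14 and 7 in the Tet-TKO libraries and 40 and 28 in the WT host libraries, and cells with Tbx6 alone, 40, 42, 18 and 7 against 39 and 33. Cells with 2 or more of the 4 genes but no Tbx6 UMI were more numerous than members in every library, at 298, 405, 120 and 63 against 146 and 158. Tbx6 summed over the cells at the inner edge stood at 23.5 to 114 CPM in Tet-TKO and at 123 and 124 CPM in WT host cells, and over cells with Tbx6 and exactly 1 of the 4 at 18.4 to 98.1 and at 74.1 and 82.6 CPM.

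Several genes outside the rule that mark caudal or paraxial mesoderm were higher in these cells than in all other kept cells. The following ratios describe the cells and are no test. For each gene the mean of the Tet-TKO libraries and the mean of the WT host libraries were averaged. The level of T was 9.28 times that of the other kept cells and that of Wnt3a 13.3 times. The level of Fgf8 was 6.08 times, of the Wnt agonist Rspo3 8.29 times and of Cdx4, a caudal homeobox factor, 5.95 times. Ripply2 and Mesp2, which mark the cells about to form a somite, were 36.2 and 12.3 times higher, and Pcdh19, a protocadherin of paraxial mesoderm, 18.4 times. Meox1 and Tcf15, factors of formed somites, were only 2.51 and 2.61 times higher, and Sox2, a neural and progenitor factor, was at 0.372 of the level of the other cells. Summed intermediate mesoderm markers were also higher, at 111 to 172% of the other cells in Tet-TKO and 222 and 244% in WT host libraries. The label was therefore matched by several genes that the rule did not use. These ratios do not set members against caudal progenitors or somites.

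Members made up a larger share of kept cells in the Tet-TKO libraries when all UMIs were used, and this order depended on depth. Unthinned, the share was 2.87% (95% exact binomial interval 2.49 to 3.29%), 2.55% (2.24 to 2.88%), 4.83% (3.99 to 5.79%) and 5.95% (4.57 to 7.60%) in Tet-TKO libraries 1 to 4 and 1.56% (1.31 to 1.85%) and 1.52% (1.27 to 1.79%) in the WT host libraries. These intervals cover counting error only. Cells with fewer UMIs than a thinning depth were left out of the thinned shares. At 5000 UMIs these were 281, 516, 76 and 89 cells in Tet-TKO and 552 and 724 in WT host libraries. When every remaining cell was first thinned at random to 5000 UMIs and the rule applied to what was left, the share was 0.568, 0.796, 0.664 and 0.577% in Tet-TKO and 0.600 and 0.557% in WT host libraries, and the groups overlapped. The means were 0.651% ± 0.106 (SD, n = 4) and 0.579% ± 0.0307 (SD, n = 2), a difference of 0.0725 percentage points with p = 0.533 in a two-sided exact permutation test. With 4 against 2 libraries the smallest p that can be reached is 0.133. The shares at 5000 UMIs rest on 38.4, 71.85, 14.75 and 5.3 Tet-TKO and 46.25 and 46.3 WT host cells, averaged over draws. Single draws of Tet-TKO library 4 gave 0 to 10 cells at this depth. Its share at 10000 UMIs rests on 14.95 cells. At 10000 UMIs the shares were 1.63, 2.01, 1.85 and 1.71% against 1.23 and 1.09% and did not overlap (difference 0.641 points, exact permutation p = 0.133). Cells left out at this depth numbered 624, 2584, 125 and 132 in Tet-TKO and 1671 and 2132 in WT host libraries. Leaving out Tet-TKO libraries 3 and 4 gave differences of 0.103 points at 5000 UMIs and 0.663 points at 10000.

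**Figure D1:**
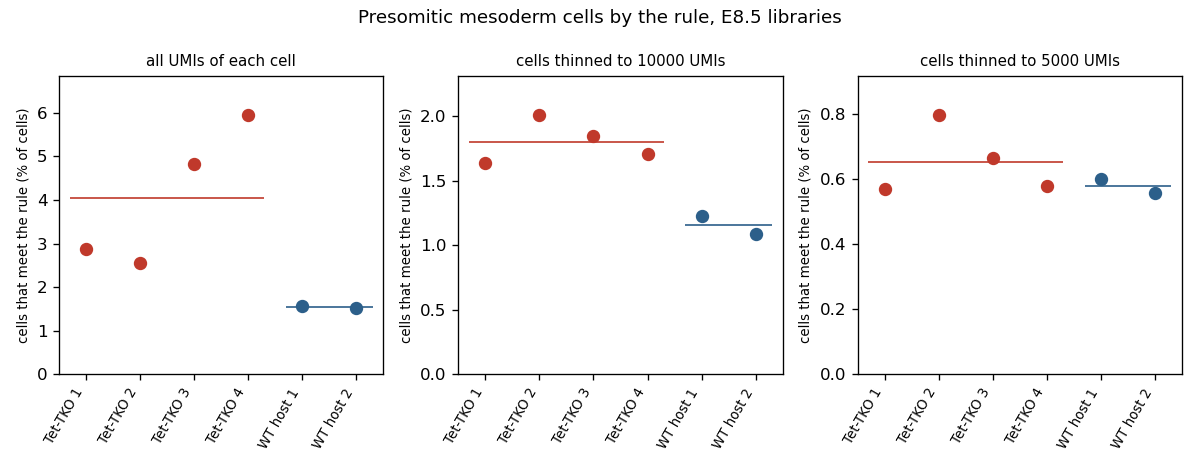
Share of kept E8.5 cells that met the rule (y axis, percent of cells) in each library (x axis), with all UMIs of each cell (left), after thinning to 10000 UMIs (middle) and after thinning to 5000 UMIs (right). Thinned shares leave out cells with fewer UMIs than the depth. Points are libraries and lines are group means (Tet-TKO red, WT host blue): the groups are apart at all UMIs and at 10000 UMIs and overlap at 5000 UMIs, where Tet-TKO libraries span 0.568 to 0.796% and WT host libraries 0.557 to 0.600%.

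The composition of the other kept cells moved with this result. Cells with at least 5% of their UMIs in haemoglobin genes made up 0.190 to 1.14% of the other cells of the Tet-TKO libraries and 13.2 and 24.9% of those of the WT host libraries. Once these blood cells were taken out of the total, the difference at 5000 UMIs turned to -0.0564 points (0.656 against 0.712%, exact permutation p = 0.533). With at least 3 of the 4 genes required it turned to -0.0211 points (exact permutation p = 0.533). The direction of the difference at 5000 UMIs thus changed with the rule and with the cells in the total.

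Within the members, cells with a UMI of T or Wnt3a were slightly more frequent in Tet-TKO. T and the ligand Wnt3a mark the caudal end of the presomitic mesoderm. After members were thinned to 5000 UMIs, at least 1 UMI of either was held by 52.7, 57.0, 56.5 and 56.9% of Tet-TKO and by 48.2 and 47.1% of WT host members. All 4 Tet-TKO libraries were above both WT host libraries, by 8.12 points between the means (exact permutation p = 0.133, the smallest possible). The difference was 14.4 points unthinned and lay between 7.58 and 9.13 points when any single library was left out. In haemoglobin-rich cells of WT host libraries, which should lack both genes, the share at this depth was 0.437 and 0.562%, with median UMI counts of 19204 and 16117 before thinning. Cells with Mesp2 or Ripply2, at the cranial end, showed the other order. They made up 3.76, 1.54, 2.66 and 4.75% of Tet-TKO and 6.41 and 4.66% of WT host members at 5000 UMIs (difference -2.36 points, exact permutation p = 0.267), and Tet-TKO library 4 overlapped WT host library 2. The same share was 0.131 and 0.0214% in the haemoglobin-rich WT host cells. At 10000 UMIs the share in members was 6.03, 2.24, 5.86 and 6.69% against 8.45 and 7.29%. The libraries did not overlap (difference -2.67 points, exact permutation p = 0.133). These values rest on few cells, on average 12, 4.5, 6.45 and 3.95 Tet-TKO and 9.55 and 7.95 WT host members. At 5000 UMIs the counts were 7.55, 3.75, 2.95 and 2.8 against 8.2 and 6.25. Counting error was not tested for these shares, so the lack of overlap is a description and no separation of the genotypes. Unthinned, the order turned, at 9.90, 2.88, 18.9 and 15% against 9.30 and 8.76%, and the highest values were in the deep libraries 3 and 4.

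Between genotypes, 25 genes of the 11049 tested were called in members by edgeR (0.226%), a call needing an adjusted p of at most 0.01 and a change of at least 1 on the log2 scale. Of these, 14 were higher in Tet-TKO (0.127%) and 11 lower (0.0996%). All 25 lay outside the WT host range in every Tet-TKO library, as did 2476 genes of those tested (22.4%). The other kept cells showed most of the same differences: 24 of the 25 called genes had the same direction, with no overlap of libraries and a log2 ratio of mean CPM of at least 1, in the other kept cells. The exception was Arg1. Fold changes are Tet-TKO over WT host throughout, on the log2 scale. Leaving out WT host library 1 left 2 calls and leaving out WT host library 2 left 3, since 1 WT host library then remained. Without Tet-TKO libraries 3 and 4, 126 genes were called (51 higher, 75 lower), all 25 among them. The main fit of genotypes, used for all lists below, did not pair libraries by number. With the number as a block 245 genes were called (94 higher, 151 lower), Tet-TKO libraries 3 and 4 having no partner.

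**Figure D2:**
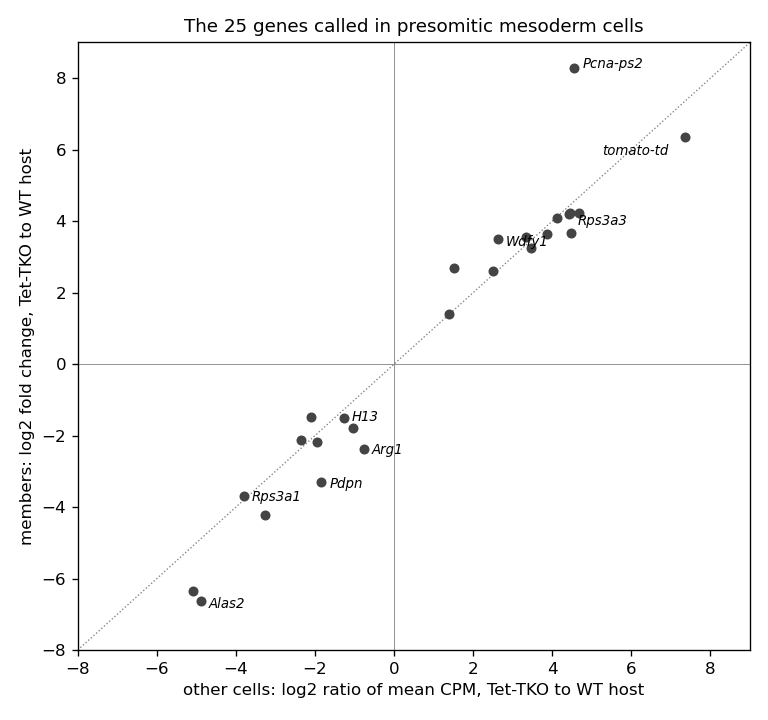
The 25 genes called in members, with the fitted log2 fold change in members (y axis) against the log2 ratio of mean CPM in the other kept cells of the same libraries (x axis). The dotted line marks equal values, and 24 of the 25 points lie at a log2 ratio of at least 1 in the same direction on both axes, Arg1 being the exception. The point of Pcna-ps2, which had 0 UMIs in WT host members, is a fitted value and no bound.

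Arg1, arginase 1, the urea cycle enzyme that splits arginine into urea and ornithine (ENSMUSG00000019987, chr10:24915221-24927484 on mm10), fell in the Tet-TKO members. It was at 16.7, 19.98, 24.5 and 21.8 CPM in Tet-TKO and at 139 and 75.9 CPM in WT host members, with every Tet-TKO library far below both WT host libraries (log2 fold change -2.36, SE 0.229, adjusted p = 0.00212). In the other kept cells the means were 15.3 and 26.0 CPM and the libraries overlapped. Among cells with Meox1 and Tcf15, described further below, Arg1 was at 119 against 292 CPM. The fall stayed past the threshold with marked doublets removed (-2.49, adjusted p = 0.0007) and without Tet-TKO libraries 3 and 4 (-2.49), and missed the threshold for a call without WT host library 1 (-1.86, adjusted p = 0.0281). Against all other cells the difference of the fold changes was -1.42 (adjusted p = 0.0107), which was no call. It was -0.75 (adjusted p = 0.392) without WT host library 1 and -0.77 (adjusted p = 0.00269) without Tet-TKO libraries 3 and 4, and it was a call with marked doublets removed (-1.54, adjusted p = 0.00343) and without WT host library 2 (adjusted p = 0.000472).

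Other protein-coding genes lower in Tet-TKO members had mixed roles. Pdpn, the membrane glycoprotein podoplanin, was at 2.15, 2.12, 2.95 and 1.07 CPM against 27.0 and 14.995 (log2 fold change -3.31, adjusted p = 0.00522). Mfap2, a protein of extracellular microfibrils, was at 15.5, 15.4, 14.9 and 13.9 CPM against 41.9 and 61.4 (-1.78, adjusted p = 0.00415). Hist1h4i, a replication-dependent histone H4 gene with near-identical copies in the genome, was at 11.96, 10.3, 15.3 and 13.02 CPM against 56.8 and 58.0 (-2.17, adjusted p = 0.000534). For these 3 genes every Tet-TKO library was far below both WT host libraries. Pdpn missed the threshold for a call without Tet-TKO library 2 (adjusted p = 0.0117) and Mfap2 without Tet-TKO library 3 (adjusted p = 0.0125). Without WT host library 1 the value of Pdpn was -2.81, and without WT host library 2 that of Mfap2 was -1.48. Smim1, a small membrane protein of red blood cells, was at 9.57, 11.5, 10.3 and 10.0 CPM against 27.0 and 31.4 (-1.49, adjusted p = 0.0096), and this difference was not seen once doublets marked by Scrublet were removed (10.1 and 6.97 CPM in WT host, log2 fold change 0.13, adjusted p = 0.918).

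Higher in Tet-TKO members was Wdfy1, an adaptor protein of endosomes, at 43.8, 45.4, 44.1 and 48.7 CPM against 5.12 and 2.90 (log2 fold change 3.49, SE 0.249, adjusted p = 0.000264). Most of the other genes called higher were copies of another gene, 8 of the 25 being annotated as pseudogenes. How reads that fit both a gene and its copy were assigned was not examined, so these levels are uncertain. The clearest case was the ribosomal protein gene Rps3a1 and its processed copy Rps3a3. Rps3a1 was at 375, 324, 587 and 259 CPM in Tet-TKO and 5043 and 4921 CPM in WT host members, while Rps3a3 was at 4763, 4810, 4168 and 4301 CPM against 330 and 166 CPM. Their sum was 4560 to 5139 CPM in Tet-TKO and 5088 and 5373 CPM in WT host members. The copy made up 87.7 to 94.3% of it in Tet-TKO and 3.27 and 6.14% in WT host members. In other pairs, named here after their values were seen, the copy also made up a larger share in Tet-TKO members. Hmga1b was 21.5 to 25.3% of the sum with Hmga1 in Tet-TKO and 2.67 and 3.41% in WT host, Eif3j2 was 21.0 to 24.2% against 1.49 and 2.11% of the sum with Eif3j1, and Rps15a-ps8 was 4.51 to 5.15% against 0.365 and 0.551% of the sum with Rps15a. The sums overlapped between genotypes for Eif3j1 and not for Hmga1 and Rps15a. With Hmga1 the sum was 107 to 133 against 145 and 164 CPM, with Eif3j1 179 to 272 against 220 and 227 CPM, and with Rps15a 2929 to 3328 against 2515 and 2701 CPM. Rps15a itself was at 2779 to 3178 against 2686 and 2506 CPM. Rpl29 and its copy Rpl29-ps5 summed to 943 to 1069 against 1740 and 1775 CPM, with the copy under 1% of the sum in every library. Pcna-ps2 had 188 UMIs in Tet-TKO and 0 in WT host members, which makes it at least 15.02-fold higher against a floor of 3 UMIs over both WT host libraries. Rps13-ps1 (log2 fold change 4.24) and AA465934, a transcript of no known protein (3.63), were also called higher.

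The Notch pathway and clock genes gave no gene past an adjusted p of 0.05. In simulated counts, 34% of the genes changed by 1 on the log2 scale passed this threshold in edgeR, and 81.5% of those changed by 2. A list without a gene past it, here and below, can therefore hold changes of such size. Of 22 listed genes 20 were tested and 0 passed in edgeR, against 0.679% of all genes (32 higher, 0.29%, and 43 lower, 0.389%), and 0 passed in DESeq2. At an unadjusted p under 0.05, 2 were higher and 2 lower, where 10.4% of all genes passed (540 higher, 4.89%, and 606 lower, 5.48%). The median log2 fold change was 0.06, against 0.01 over all genes. Of the 20, 3 were above the WT host range in every Tet-TKO library and 4 below it, beside 9.18% above and 13.2% below of all genes. Hes1, a Notch target and repressor that cycles in the presomitic mesoderm, stood highest in the list: 45.2, 42.7, 148 and 134 CPM in the Tet-TKO members and 19.1 and 27.1 CPM in the WT host members. All 4 Tet-TKO libraries were above both WT host libraries, and the deep libraries were far above the other Tet-TKO libraries (log2 fold change 1.99, SE 0.555, adjusted p = 0.222). Without libraries 3 and 4 the value was 1.00 with an adjusted p of 0.00527. In that fit 439 of 9869 genes (4.45%) passed an adjusted p of 0.05. In the other kept cells Hes1 was at 101 against 49.6 CPM, and the difference of the log2 fold changes between members and these cells was 1.00 (adjusted p = 0.0406), short of a call. Hey1, a further Notch target, was at 17.0, 16.3, 18.6 and 23.7 CPM against 6.98 and 10.6 (1.11, adjusted p = 0.124) and did not overlap either. Notch1, the receptor, was at 52.9, 63.0, 67.1 and 59.1 against 49.3 and 48.9 CPM (0.31, adjusted p = 0.517). Lfng, the glycosyltransferase that modifies Notch in each cycle and whose promoter is shown above, was at 19.6, 31.8, 21.6 and 15.4 against 25.6 and 17.9 CPM (0.02, adjusted p = 0.992), with full overlap. Nrarp, a feedback inhibitor of Notch, had a value of 0.68 and the ligand Jag1 one of -0.51, neither past the threshold.

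**Figure D3:**
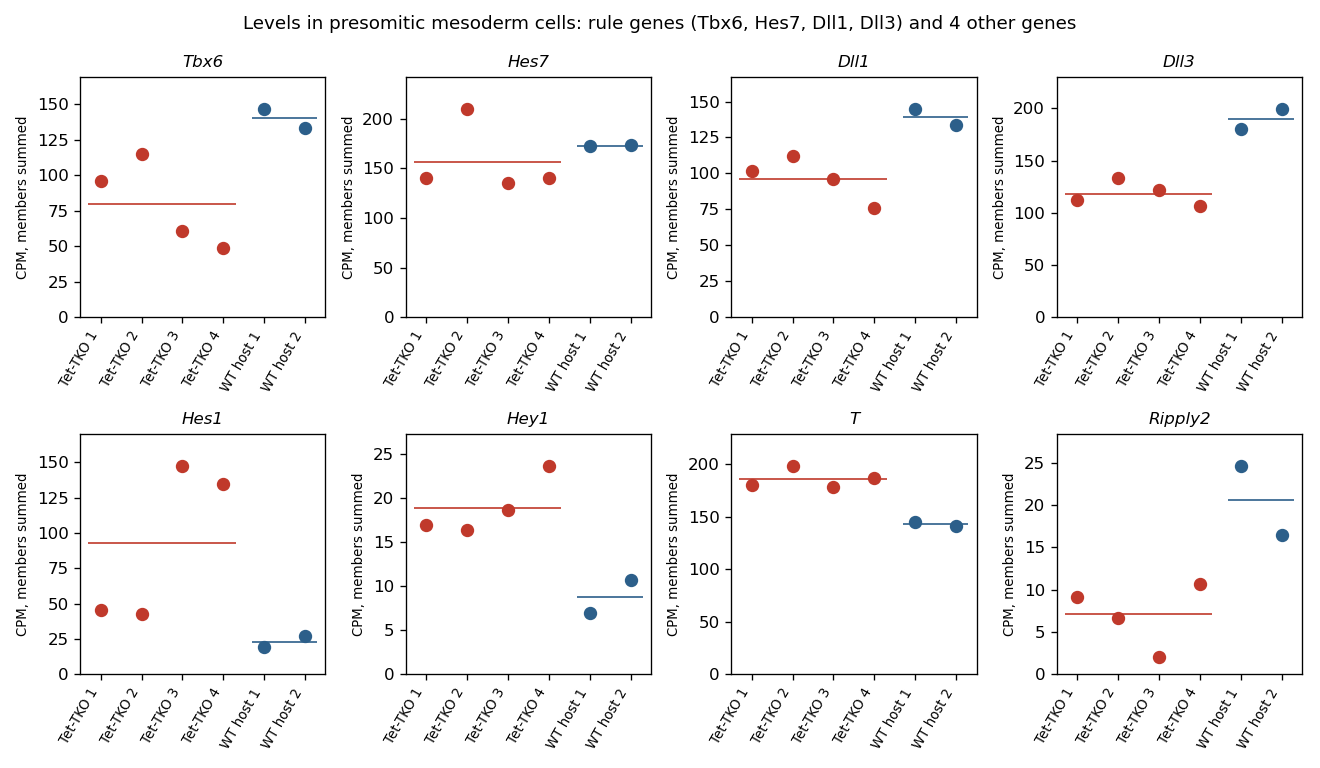
Level of 8 genes in the summed members of each library (y axis, CPM; x axis, library), with 4 rule genes in the upper row as a description and 4 genes outside the rule below. Points are libraries and lines are group means (Tet-TKO red, WT host blue): Hes1, Hey1 and T are higher and Ripply2 is lower in all 4 Tet-TKO libraries, and Hes1 is highest in Tet-TKO libraries 3 and 4.

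Wnt and FGF genes, whose gradient runs down from the caudal end, also gave 0 genes past the threshold in edgeR, of 23 and 19 tested, and 0 in DESeq2. In the Wnt list 4 of 23 genes were higher and 1 lower at an unadjusted p under 0.05 (median 0.05), and in the FGF list 2 of 19 were higher and 4 lower (median 0.05), beside 4.89% higher and 5.48% lower of all genes. In every Tet-TKO library 4 Wnt genes were above and 3 below the WT host range, and 5 FGF genes above and 4 below. The shares of all genes were 9.18% above and 13.2% below. Rspo3, which amplifies Wnt signals, was at 588, 666, 583 and 530 CPM in Tet-TKO and 515 and 416 CPM in WT host members (log2 fold change 0.36, adjusted p = 0.48). Fgf8, the main FGF ligand of the caudal end, was at 317, 347, 297 and 281 against 263 and 247 CPM (0.30, adjusted p = 0.541). Both genes were above the WT host range in every Tet-TKO library, by less than the test could separate from the spread, and passed an adjusted p of 0.05 without Tet-TKO libraries 3 and 4 (0.50 and 0.45). Fgf4, the ligand that acts with Fgf8, lay on the other side at 11.96, 13.01, 11.8 and 6.19 against 28.4 and 17.9 CPM (-1.11, adjusted p = 0.267). Fgf15 (-1.02) and Fgf18 (-0.93) were likewise below the WT host range in every Tet-TKO library, as was the FGF feedback phosphatase Dusp6 (-0.45). Fgf18 passed an adjusted p of 0.05 without Tet-TKO libraries 3 and 4 (-1.21, adjusted p = 0.0139), so that 1 FGF gene was higher and 1 lower of 18 tested there, beside 4.45% of all genes. Il17rd, an inhibitor of FGF receptors, was at 23.9, 30.3, 73.7 and 64.2 against 19.1 and 22.7 CPM (1.20, adjusted p = 0.384), with the high values in the deep libraries, and gave 0.43 (adjusted p = 0.313) without them. Wnt5a, a ligand of noncanonical signalling, had a value of 0.37, the Wnt feedback inhibitor Axin2 one of 0.63 and Wnt3a one of 0.28. Of the 23 Wnt genes 12 had a value above 0, and the lowest value in the list was -1.29. Among the genes lower in the mean of Tet-TKO members were Wnt8a (5.20 against 12.9 CPM) and Lef1 (256 against 315 CPM).

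Caudal progenitor genes showed small differences. Of 13 tested, 0 passed in edgeR or DESeq2, and 1 was higher at an unadjusted p under 0.05, beside 4.89% of all genes (median 0.03). Log2 fold changes ran from -0.73 to 0.39, with 8 of the 13 above 0. With marked doublets removed Cdx1, of the same list, gave -0.77 in edgeR (adjusted p = 0.515). Of the 13, 4 were above the WT host range in every Tet-TKO library and 0 below it, beside 9.18% above and 13.2% below of all genes. T was at 180, 199, 178 and 187 CPM in Tet-TKO and 145 and 141 CPM in WT host members (log2 fold change 0.39, SE 0.125, adjusted p = 0.311). Its 4 Tet-TKO values were close together and all higher than in WT host, and without libraries 3 and 4 the value was 0.47 with an adjusted p of 0.00713. Cdx2, a homeobox factor of axial extension, was at 240, 257, 242 and 248 against 223 and 201 CPM (0.23, adjusted p = 0.559). Sox2 was at 7.18, 12.7, 25.3 and 20.5 against 20.9 and 27.1 CPM, so libraries 1 and 2 were low and the deep libraries were near the WT host range. With all 4 Tet-TKO libraries the genotypes overlapped for Sox2. Without the deep libraries, a setting not planned beforehand, Sox2 passed as lower (-1.23, adjusted p = 0.0178). In that setting 1 caudal gene was higher and 1 lower of 13 tested, beside 4.45% of all genes.

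Genes of the anterior presomitic mesoderm and of the somite also gave none past the threshold. Of 23 listed genes 16 were tested, 0 passed in edgeR or DESeq2, 0 were higher and 4 lower at an unadjusted p under 0.05 (5.48% of all genes were lower), and the median log2 fold change was -0.38, against 0.01 over all genes. Pcdh8, a protocadherin at the forming somite border, was at 10.5, 7.57, 6.27 and 7.68 CPM in Tet-TKO and 24.2 and 15.5 CPM in WT host members (-1.30, adjusted p = 0.117). Ripply2, which shuts off Tbx6 and Mesp2 action as a somite forms, was at 9.09, 6.66, 2.03 and 10.7 against 24.7 and 16.4 CPM (-1.54, adjusted p = 0.313). Foxc2, a forkhead factor of paraxial mesoderm, was at 17.9, 24.2, 16.2 and 18.99 against 34.4 and 37.7 CPM (-0.90, adjusted p = 0.129). The genotypes did not overlap for these 3 genes, nor for Foxc1 (-0.45), whereas Mesp2 overlapped fully (-0.31, adjusted p = 0.869). Of the 16 tested, 5 were below the WT host range in every Tet-TKO library and 0 above it, beside 13.2% below and 9.18% above of all genes. Meox1 and Tcf15 were highest in the deep libraries among the Tet-TKO libraries. Meox1 was at 11.7, 14.2, 24.0 and 48.9 against 46.5 and 41.6 CPM, and Tcf15 at 19.1, 28.5, 53.5 and 88.1 against 43.7 and 61.9 CPM. In Tet-TKO library 4 the removal of 1 marked doublet took Meox1 to 28.3 and Tcf15 to 61.3 CPM, and with marked doublets removed from every library Meox1 no longer overlapped between genotypes (-1.31, adjusted p = 0.0915). Without libraries 3 and 4 both passed an adjusted p of 0.05 (-1.70 and -1.10), as did Ripply2 (-1.29) and Foxc2 (-0.72), which made 4 lower and 0 higher of 14 tested, where 4.45% of all genes passed.

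Retinoic acid, BMP, Nodal and adhesion genes gave 0 genes past the threshold in edgeR and in DESeq2. At an unadjusted p under 0.05 there were 0 of 10 retinoic acid genes, 3 of 12 BMP genes (2 higher, 1 lower), 1 of 4 Nodal genes (lower) and 4 of 16 genes of epithelial-mesenchymal transition and adhesion (1 higher, 3 lower), beside 10.4% of all genes. The medians were -0.02, 0.27, -0.01 and -0.12. Msx1, a homeobox target of BMP, was at 144, 133, 166 and 148 CPM in Tet-TKO and 93.0 and 106 CPM in WT host members (log2 fold change 0.58, adjusted p = 0.105), with no overlap. Without Tet-TKO libraries 3 and 4, Msx1 (0.55, adjusted p = 0.00643) and Id1, a further BMP target (0.61, adjusted p = 0.00255), passed as higher, 2 of 12 tested beside 4.45% of all genes. The BMP antagonist Nog was at 6.94, 7.26, 9.03 and 10.9 against 4.19 and 4.35 CPM (1.00, adjusted p = 0.297). Aldh1a2, which makes retinoic acid in the somites and the anterior presomitic mesoderm, was at 154, 79.6, 47.2 and 29.0 against 194 and 78.8 CPM and varied more between libraries of 1 genotype than between the genotypes. Pcdh19 was at 91.1, 76.9, 72.1 and 77.2 against 119 and 113 CPM (-0.53, adjusted p = 0.229).

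Glycolysis genes, whose activity is graded along the presomitic mesoderm, gave 0 of 20 past the threshold in edgeR and 3 in DESeq2, in which 146 of 11049 genes passed. At an unadjusted p under 0.05, 4 were lower and 0 higher, where 5.48% of all genes were lower. Of the 20, 8 were below the WT host range in every Tet-TKO library and 0 above it, beside 13.2% below and 9.18% above of all genes (median -0.12). Aldoc, an aldolase, was at 13.6, 21.8, 12.4 and 10.7 CPM in Tet-TKO and 40.0 and 46.0 CPM in WT host members (log2 fold change -1.56, adjusted p = 0.0537). The glucose transporter gene Slc2a1 was at 214, 240, 236 and 225 against 386 and 331 CPM (-0.64, adjusted p = 0.0582), and Pkm, pyruvate kinase, at 1847, 1799, 2048 and 1953 against 2622 and 2806 CPM (-0.50, adjusted p = 0.0648). All 3 did not overlap between genotypes and missed the threshold, and all 3 passed it without Tet-TKO libraries 3 and 4 (4 lower of 20 tested, beside 4.45% of all genes). With marked doublets removed Aldoc passed (-1.69, adjusted p = 0.044), while Slc2a1 (-0.48, adjusted p = 0.195) and Pkm (-0.52, adjusted p = 0.0725) did not. Gapdh, in the same pathway, was almost level at 3692, 3693, 3714 and 3709 against 3749 and 3770 CPM (-0.01). Hox genes, which encode position along the body axis, gave 0 of 27 tested in edgeR and DESeq2, with a median of -0.01. At an unadjusted p under 0.05, 1 was higher, beside 4.89% of all genes. Of the 27, 2 were above the WT host range in every Tet-TKO library and 0 below it, beside 9.18% above and 13.2% below of all genes. Hoxc9 was at 22.2, 51.8, 110 and 75.1 against 18.1 and 39.7 CPM (1.16, adjusted p = 0.52), with the highest values in the deep libraries, and gave 0.40 (adjusted p = 0.673) without them.

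Among the lists above and below other than markers of other cell types, changed genes were found in the imprinted list. Of 32 tested, 3 rose and 1 fell at an adjusted p of 0.05, 12.5% against 0.679% of all genes, and 5 passed in DESeq2. Zdbf2, expressed from the paternal allele in the embryo, rose from 34.9 and 27.1 CPM in WT host members to 78.9, 85.4, 125 and 149 CPM in Tet-TKO (log2 fold change 1.82, SE 0.264, adjusted p = 0.0182). Snrpn, a paternally expressed splicing protein gene of the Prader-Willi region, rose from 74.9 and 74.0 to 144, 128, 166 and 210 CPM (1.12, adjusted p = 0.0288). H13 (signal peptide peptidase) and Mcts2, a paternally expressed retrogene that lies within H13, moved in opposite directions. H13 (chr2:152669461-152708670 on mm10) fell from 48.8 and 45.0 to 16.7, 14.5, 18.1 and 16.6 CPM (-1.50, SE 0.159, adjusted p = 0.0036). Mcts2 (chr2:152687035-152687946) rose from 52.6 and 54.2 to 115, 91.1, 94.9 and 95.4 CPM (0.90, adjusted p = 0.0491). Both genes are annotated on the plus strand, and how reads in the shared stretch were assigned was not examined. Tested against the other kept cells, the fold change of Snrpn was smaller in members by 0.65 (162 against 74.5 CPM in members and 239 against 65.6 CPM elsewhere, adjusted p = 0.000799), below the size asked of a call, while those of Zdbf2 (-0.11), H13 (-0.13) and Mcts2 (0.27) gave adjusted p of 0.811, 0.757 and 0.301. None of the 4 passed when WT host library 1 or 2 was left out, with adjusted p of 0.105 and 0.0683 for H13. Snrpn (adjusted p = 0.057) and Mcts2 (adjusted p = 0.0708) also missed the threshold without Tet-TKO library 3, and Mcts2 did without Tet-TKO library 2 (adjusted p = 0.0744) and with marked doublets removed (adjusted p = 0.0737). Ndn, next to Snrpn, just missed at 0.67 (adjusted p = 0.0783). The maternally expressed genes H19 (-0.69) and Grb10 (-0.54) were below the WT host range in every Tet-TKO library without passing the threshold. Without Tet-TKO libraries 3 and 4, Ndn (0.64, adjusted p = 0.00339), H19 (-0.97, adjusted p = 0.000104) and Grb10 (-0.51, adjusted p = 0.00955) passed it, and 6 imprinted genes were higher and 4 lower of 29 tested, where 4.45% of all genes passed.

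Among genes of DNA methylation and demethylation, 0 of 11 tested passed in edgeR, 1 in DESeq2 and 2, both lower, at an unadjusted p under 0.05, beside 5.48% lower of all genes. Without Tet-TKO libraries 3 and 4, 3 of 10 passed as lower (Tdg, Tet1 and Uhrf1), beside 4.45% of all genes. Tdg, the glycosylase that excises the bases TET enzymes make, was at 31.8, 36.9, 56.2 and 61.5 CPM in Tet-TKO and 82.3 and 89.5 CPM in WT host members. Every Tet-TKO library was below the WT host range, the deep ones less so (log2 fold change -0.88, adjusted p = 0.167), and without them the value was -1.26 with an adjusted p of 5.3e-05. Of 22 germline genes that DNA methylation keeps silent elsewhere only 3 were tested, as the others were too low, and 0 of the 3 passed in edgeR and DESeq2, with 2 higher at an unadjusted p under 0.05, beside 4.89% of all genes. Without Tet-TKO libraries 3 and 4 both that could be tested passed as higher, Sycp3 (4.10, adjusted p = 0.00986) and Rhox5 (1.95, adjusted p = 0.0442). Xlr3a was at 2.39, 2.12, 8.30 and 13.9 against 0 and 0.967 CPM. Pluripotency genes gave 0 of 7 tested in both tools, with 2 higher at an unadjusted p under 0.05, beside 4.89% of all genes (median 0.20).

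**Figure D4:**
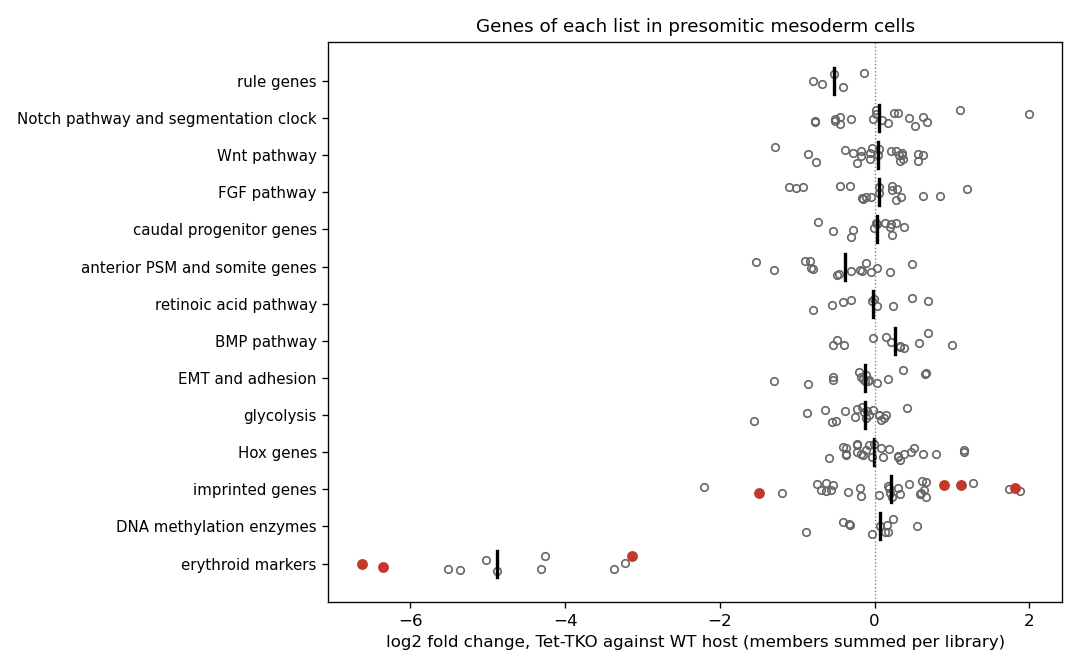
Fitted log2 fold change, Tet-TKO against WT host, of each tested gene (x axis) in 14 gene lists (y axis) in the summed members. Circles are genes, filled red at an adjusted p of 0.05, and bars are list medians: red points occur among imprinted genes (3 higher, 1 lower) and erythroid markers (3 lower), and the anterior presomitic mesoderm and somite genes have a median of -0.38.

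Transcripts of blood were present in the WT host members and moved with genotype. Of the members, 1 and 7 in the WT host libraries and 0 in the Tet-TKO libraries had at least 5% of their UMIs in haemoglobin genes, and their part in the sums was not tested. The 13 erythroid markers summed to 10.46 to 479 CPM in Tet-TKO members, with 479 in library 2, and to 2639 and 7461 CPM in WT host members, beside 646 to 1818 and 20163 and 49260 CPM in the other cells. All 11 that were tested were lower in all 4 Tet-TKO libraries and at an unadjusted p under 0.05, beside 5.48% lower of all genes, and 3 fell at an adjusted p of 0.05 (Alas2, Hba-a2 and Cited4), beside 0.389%. All 11 passed as lower without Tet-TKO libraries 3 and 4, beside 4.45% of all genes in either direction. With marked doublets removed Hba-a2 passed (-6.08, adjusted p = 0.00218), Cited4 did not (-1.63, adjusted p = 0.426) and Alas2 was too low to test. Without WT host library 2 none of the 3 passed, without WT host library 1 Hba-a2 alone did, and Cited4 also missed without Tet-TKO library 3 (adjusted p = 0.0633). Hba-x, an embryonic globin, was at 5.98, 212, 7.37 and 2.35 against 1430 and 3755 CPM. With marked doublets removed Hba-x (-6.02, adjusted p = 0.00061) and the globin gene Hbb-bh1 (-4.66, adjusted p = 0.0042) also passed as lower. After marked doublets were removed (10, 19, 5 and 1 Tet-TKO and 12 and 19 WT host members), the sum was still 10.0 to 54.0 against 862 and 1490 CPM. Yolk sac endoderm markers summed to 7.57 to 21.0 against 43.5 and 51.2 CPM, with Apoa1 lower (-2.67, adjusted p = 0.0236). With marked doublets removed these sums were 7.27 to 15.4 against 56.6 and 26.6 CPM and Apoa1 missed the threshold (-2.35, adjusted p = 0.132), as it did without WT host library 1 (adjusted p = 0.404) or 2 (adjusted p = 0.234). Cardiomyocyte markers summed to 11.1 to 541 against 34.8 and 73.5 CPM, with 541 in Tet-TKO library 3. Endothelium markers (15.9 to 38.7 against 17.4 and 43.7 CPM), neural markers (41.9 to 98.4 against 61.9 and 79.3), lateral and extraembryonic mesoderm markers (93.5 to 232 against 150 and 215) and extraembryonic ectoderm markers (8.75 to 40.6 against 13.1 and 23.7, with Elf5 at 0 in every library) overlapped between genotypes. Gut and notochord markers summed to 44.2 to 70.6 against 94.3 and 177 CPM, and with marked doublets removed to 32.8 to 59.9 against 93.0 and 31.7 CPM. The part of such transcripts in the differences above was not tested beyond the removal of marked doublets.

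To see which genotype differences were larger or smaller in members than elsewhere, the difference of the 2 log2 fold changes (members minus comparison cells) was tested in edgeR with the library as a block. Against all other kept cells, 92 of 18324 genes were called (0.502%), 50 with a higher and 42 with a lower value in members. By adjusted p the first genes named were Tmem14c (1.20), Cpox (1.51), Alad (1.31), Mgst3 (2.05) and Tmem37 (4.71). Of the other cells, 13.2 and 24.9% were haemoglobin-rich in the WT host libraries, and the part of these cells in the differences was not tested. Tmem37 was at 4.78 against 0.949 CPM in members and, in the opposite order, at 8.55 against 41.9 CPM in the other cells. Cpox, an enzyme of haem synthesis, was at 35.6 against 51.6 CPM in members and at 53.1 against 205 CPM in the other cells.

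Genes with a lower value in members against all other kept cells, chosen after their values were seen, were Stmn2, Magi1, Pcdh19 and Osr1. Of these, only Osr1 was also called against cells with Meox1 and Tcf15, described below. None of them was called against cells with T, Sox2 and Nkx1-2, also described below. Stmn2, a regulator of microtubules, was at 57.9, 65.1, 52.2 and 61.0 CPM in Tet-TKO and 107 and 166 CPM in WT host members but at 53.3 against 45.6 CPM in the other cells (difference of log2 fold changes -1.29, adjusted p = 7.55e-06). Magi1, a scaffold of cell junctions, was at 16.5, 15.1, 19.9 and 20.7 against 48.8 and 42.1 CPM in members and at 10.3 against 8.14 CPM elsewhere (-1.56, adjusted p = 5.94e-06). For Pcdh19 the difference was -1.09 (adjusted p = 0.000183). These 3 passed with marked doublets removed (-1.33, -1.64 and -1.22) and without Tet-TKO libraries 3 and 4 (-1.46, -1.48 and -1.15), while Pcdh19 fell to -0.86 without WT host library 2, short of a call. Krt18, a keratin of simple epithelia, and Pmp22, a membrane protein, likewise chosen after their values were seen, were also called (-1.50 and -1.91), and with marked doublets removed they were at 0.12 (adjusted p = 0.865) and -0.46 (adjusted p = 0.389). Pmp22 also missed without WT host library 1 (adjusted p = 0.0327).

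Osr1, a zinc finger factor of intermediate and lateral mesoderm and a marker fixed here for other cells, fell in members. It was at 18.4, 13.3, 13.3 and 13.9 CPM in Tet-TKO and at 34.4 and 54.7 CPM in WT host members (log2 fold change -1.59, SE 0.242, adjusted p = 0.0234). The adjusted p was 0.0777 without WT host library 1, 0.463 without WT host library 2 and 0.0553 without Tet-TKO library 3. In cells with at least 1 UMI each of Meox1 and Tcf15 that were no members (somite-rule cells, 921 in all), it was at 28.8, 25.1, 19.1 and 17.1 against 14.6 and 12.2 CPM, the opposite order. The difference of the log2 fold changes was -2.31 (SE 0.266, adjusted p = 0.00307), the 1 call among 11682 genes against these cells (0.00856%). The value was -2.51 with marked doublets removed (adjusted p = 0.0274), -2.22 without Tet-TKO library 2 (adjusted p = 0.0172), -1.81 without WT host library 2 (adjusted p = 0.125) and -2.49 without Tet-TKO libraries 3 and 4 (adjusted p = 0.000735). Against all other cells it was -1.62 (adjusted p = 0.000264), and without WT host library 2 it was -1.37 (adjusted p = 0.0205), short of a call. The summed intermediate mesoderm markers were at 68.2 to 127 against 101 and 110 CPM and overlapped, and Lhx1, of the same list, was at 53.6, 30.3, 17.3 and 41.8 against 19.1 and 7.26 CPM.

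Against cells with at least 1 UMI each of T, Sox2 and Nkx1-2 that were no members (neuromesodermal-rule cells, 727 in all), 5 of 11728 genes were called (0.0426%). With the member rule applied to cells thinned to 5000 UMIs, 0 of 8823 were called. Fgf8 was lower in Tet-TKO than in WT host libraries among the neuromesodermal-rule cells, at 262, 300, 209 and 143 against 357 and 414 CPM, while in members its levels lay above the WT host range, as given above (difference 1.07, adjusted p = 0.00857). That difference was under the log2 size of 1 asked of a call without Tet-TKO library 4 (0.95) and without libraries 3 and 4 (0.85). Cyp26a1, which degrades retinoic acid at the caudal end, was at 19.3, 30.7, 48.3 and 16.9 against 61.3 and 129 CPM there and at 26.8, 39.6, 52.2 and 36.7 against 28.8 and 67.2 CPM in members (1.45, adjusted p = 0.00857). Ifngr2, a chain of the interferon gamma receptor, was at 12.1, 12.3, 11.3 and 8.46 against 62.7 and 61.2 CPM there and level in members at 7.89, 11.5, 11.4 and 9.60 against 10.7 and 10.2 CPM (2.45, SE 0.283, adjusted p = 0.000862). For Fgf8 the order of the genotypes was opposite in the 2 kinds of cell, Cyp26a1 overlapped between genotypes in members and not there, and Ifngr2 was level in members alone. The keratins Krt18 and Krt8 were the other called genes (-2.19 and -1.79, adjusted p = 0.000273 and 0.00471): Krt18 was at 41.4, 32.1, 33.2 and 17.5 against 114 and 67.7 CPM in members and at 193, 96.6, 188 and 78.1 against 86.0 and 90.3 CPM there. With marked doublets removed Ifngr2 was the 1 call (2.41, adjusted p = 0.00848), and Fgf8 (1.02, adjusted p = 0.0574), Cyp26a1 (1.16, adjusted p = 0.17), Krt18 (-1.78, adjusted p = 0.394) and Krt8 (-1.47, adjusted p = 0.831) missed the threshold. Without WT host library 2 the adjusted p was 0.0388 for Ifngr2, 0.472 for Fgf8 and 0.347 for Cyp26a1, and without WT host library 1 it was 0.0254, 0.0436 and 0.111. Cyp26a1 also missed without Tet-TKO library 1 (adjusted p = 0.0169), Krt18 without WT host library 1 (adjusted p = 0.0254) and Krt8 without WT host library 1 (adjusted p = 0.303) or 2 (adjusted p = 0.0388).

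**Figure D5:**
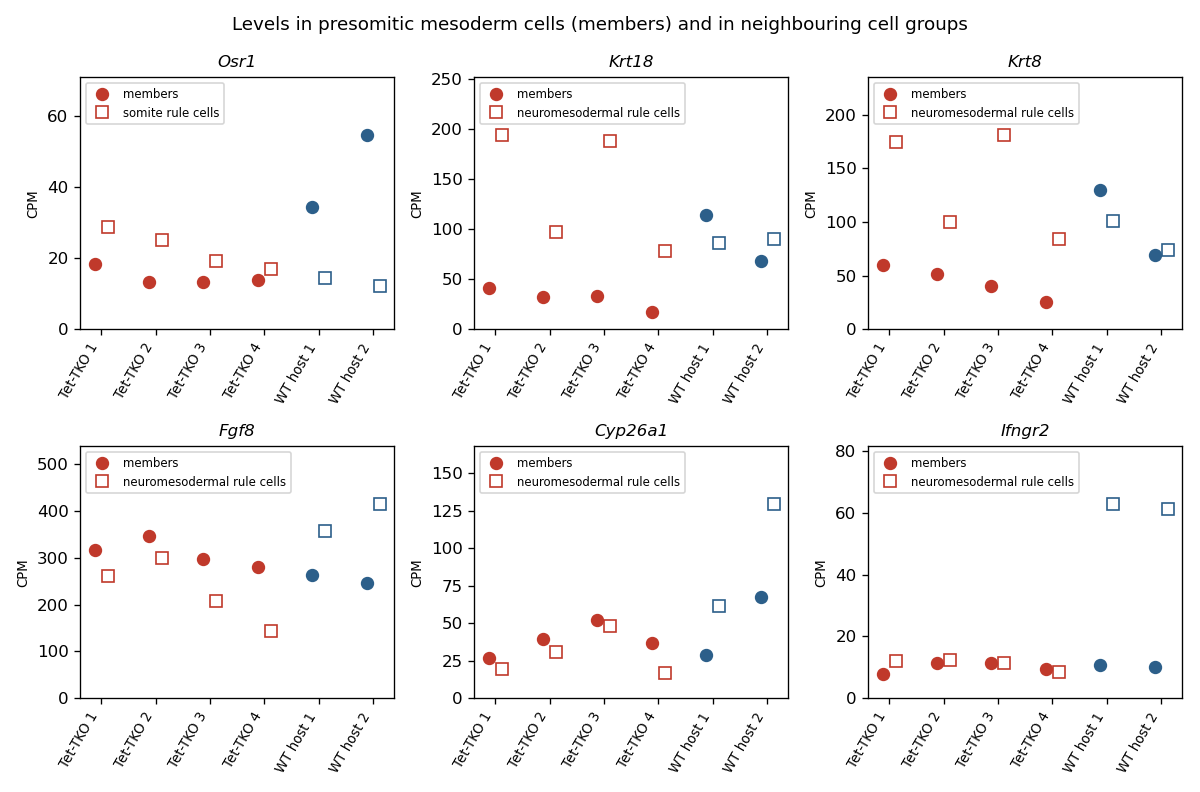
Level (y axis, CPM) of 6 genes in each library (x axis) in members (filled circles) and in a neighbouring cell group (open squares, somite-rule cells for Osr1 and neuromesodermal-rule cells for the others), Tet-TKO in red and WT host in blue. Osr1 is lower in Tet-TKO members and higher in Tet-TKO somite-rule cells, Fgf8 shows the opposite pattern between members and neuromesodermal-rule cells, and Ifngr2 differs only in the neuromesodermal-rule cells.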

How the data were processed

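Single-cell RNA-seq (10x Chromium, 3′ UMI counting) was measured in sorted cells of chimaeric embryos. Per the file headers and the study's methods, the authors made the deposited count matrices with Cell Ranger (3.1.0 in the matrix header) on mm10, and each value is a raw UMI count of a gene in a cell, not normalised. The study's methods name a later version of Cell Ranger than the header. Every deposited barcode had at least 500 UMIs.

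The filters and the rule for members are given in the report. The members and gene lists were chosen with earlier results of these data known. The count of each gene was summed over the members of a library. Genes were filtered with filterByExpr, normalised by TMM and tested with the quasi-likelihood test of edgeR 4.0.16 in R 4.3.3, with Benjamini-Hochberg adjustment over all genes tested. DESeq2 1.42.0 was an alternative. Leaving out the deep Tet-TKO libraries was an alternative that was not planned beforehand. Differences between members and comparison cells were tested on the sums of both, with the library as a block. Shares were compared with exact permutation tests over libraries, after hypergeometric thinning of each cell (mean of 20 draws). Cells with fewer UMIs than the depth were left out of thinned shares. Doublets were marked with Scrublet (scanpy 1.11.5), kept in the main results and removed in an alternative. The code was tested on simulated counts. The text names genes of the rule and the lists, the targeted genes, tdTomato and Xist, up to 12 called genes in each direction (largest change, outside the WT host range in every Tet-TKO library, no clone names or marker genes) and the 6 called genes of lowest adjusted p in each test of a difference; any other named gene is said to be chosen after its values were seen. Gene positions are from GENCODE M21 (mm10). 1 gene that this rule names is not reported here. The E7.5 libraries entered no test.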

Additional observations from a re-analysis of the deposited data

Results flagged for a closer look

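Among 114 values of the 4 Tet-TKO libraries, 10 had 1 library far from the other three by Dixon's test, of which chance flags about 1 in 20. Library 2 was the highest for Alas2 (0.303 CPM), Hba-a2 (4.54 CPM), Hba-x (212 CPM), Hbb-bh1 (164 CPM) and the summed erythroid markers (479 CPM). It was also the highest for the rule gene Hes7 (210 CPM). Rule genes chose the cells, so that flag is a description and no result. Library 1 was the highest for Osr1 (18.4 CPM) and Mesp1 (87.8 CPM) and the lowest for the share of members with T or Wnt3a at 5000 UMIs (52.7%). Library 3 was the highest for the summed cardiomyocyte markers (541 CPM).

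The genotype effect differed between members and other cells, in a test of the difference itself, for the genes described in the report. Against all other kept cells the log2 differences were 1.20 for Tmem14c, 1.51 for Cpox, 1.31 for Alad, 2.05 for Mgst3, 4.71 for Tmem37, -1.50 for Krt18, -1.62 for Osr1, -1.09 for Pcdh19, -1.56 for Magi1, -1.29 for Stmn2 and -1.91 for Pmp22. Against somite-rule cells the value was -2.31 for Osr1. Against neuromesodermal-rule cells the values were 2.45 for Ifngr2, -1.79 for Krt8, 1.07 for Fgf8, 1.45 for Cyp26a1 and -2.19 for Krt18.

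Cells that met the same rule were also found at E7.5, in libraries that no comparison of the report uses, 179 of them Tet-TKO and 285 of them WT host cells.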

How the results depend on the processing

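The share of members at 5000 UMIs (0.0725 points higher in Tet-TKO) turned to -0.0211 with at least 3 of the 4 genes required and to -0.0564 with haemoglobin-rich cells left out of the total, was 0.0169 with members whose tdTomato matched the sorted fraction, and lay between 0.0242 and 0.1001 when 1 library was left out. The share with Mesp2 or Ripply2 turned to 2.64 unthinned and lay between -3.23 and -1.49 with 1 library left out, and that with T or Wnt3a between 7.58 and 9.13. The 25 calls became 73 with DESeq2, 233 with no filter on low counts, 15 with an equal number of members per library, 126 without Tet-TKO libraries 3 and 4, and 2 to 33 with 1 library left out. The 92 differences against all other cells became 187 with no filter, 184 with libraries 1 and 2 and libraries 3 and 4 summed, 163 without Tet-TKO libraries 3 and 4, and 32 to 166 with 1 library left out. The 1 call against somite-rule cells became 39 with no filter, 0 with doublets removed, 10 without Tet-TKO libraries 3 and 4, and 0 to 4 with 1 library left out. The 5 against neuromesodermal-rule cells became 35 with no filter, 0 with the rule applied to thinned cells, 3 with libraries summed, 1 with doublets removed, 10 without Tet-TKO libraries 3 and 4, and 2 to 9 with 1 library left out. The 4 listed genes past the threshold became 9 with DESeq2, 35 with no filter, 32 without Tet-TKO libraries 3 and 4, and 0 to 4 with 1 library left out. With doublets removed, Smim1 turned to 0.13 and Krt18 against all other cells to 0.12. Other causes of these changes were not tested. With no filter the median log2 fold change of all genes moved to 0.13.

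For cell type proportions the paper sets each Tet-TKO sample against its matching WT host. The sources used here do not say which library numbers match. Matched library numbers correlated at 0.376 and 0.104 in 2 pairs, too few to show that the numbers pair the samples. With the replicate block, 245 genes and 73 listed genes passed, Tet-TKO libraries 3 and 4 having no partner number and dropping out.

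With 2 WT host libraries, the depth and number of libraries limit what can be shown, and genes of few UMIs, such as most germline genes, could not be tested.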

Other observations

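At E7.5, with 1 library of each genotype and so no test, the rule took 179 of 5510 kept cells in Tet-TKO (3.25%, 95% exact binomial interval 2.80 to 3.75%) and 285 of 7142 in WT host (3.99%, 3.55 to 4.47%), and 0.381 and 1.18% after thinning to 5000 UMIs. Intervals given here are exact and cover counting error only. Median UMI counts of these cells were 25624 in Tet-TKO and 14082 in WT host. Rule genes chose the cells, and the parts of depth and genotype in their levels were not tested. The rule gene Tbx6 stood at 64.3 CPM (57.3 to 71.9) in Tet-TKO against 145 CPM (134 to 157) in WT host, and Hes7 at 49.3 CPM (43.2 to 56.0) against 90.2 CPM (81.5 to 99.6). Mesp1, a factor of early mesoderm, was at 522 CPM (502 to 543) against 235 CPM (221 to 250). Lefty2, a Nodal antagonist, was at 42.2 CPM (36.6 to 48.4) against 168 CPM (156 to 181). T was at 495 CPM (475 to 515) against 528 CPM (507 to 550), so the intervals overlapped. Hes1 was at 40.7 CPM (35.2 to 46.8) against 15.8 CPM (12.3 to 19.9), and Fgf8 at 186 CPM (174 to 198) against 106 CPM (96.1 to 116). The imprinted genes Zdbf2, at 107 CPM (97.6 to 116) against 34.5 CPM (29.2 to 40.5), and H13, at 13.6 CPM (10.5 to 17.3) against 46.8 CPM (40.6 to 53.7), were on the same sides of WT host as in members at E8.5. These genes were chosen after their values were seen.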
